A study of Mus musculus with 17 samples.

Results

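UDP-glucuronosyltransferases (UGTs) are membrane enzymes of the endoplasmic reticulum that join glucuronic acid to bilirubin, steroids, bile acids and drugs, which makes them more soluble in water and easier to excrete. The sugar comes from UDP-glucuronic acid, which UDP-glucose dehydrogenase, the product of Ugdh, makes in the cytosol. In the liver, several UGT genes are known targets of the pregnane X receptor (PXR), a nuclear receptor encoded by Nr1i2 that binds drugs and steroids. The UGT genes lie in clusters. Each Ugt1a gene has its own first exon and promoter and shares its last exons with all the others of the locus, whereas the Ugt2b genes are complete genes that stand next to each other.

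Transcripts of 10 genes were sought in the colon, namely Ugt1a1, Ugt1a6a, Ugt1a7c, Ugt1a9, Ugt2b1, Ugt2b5, Ugt2b34, Ugt2b35, Ugt2b36 and Ugdh. A gene was read through the array probe that carried its name, and, where it had several, through the one with the highest mean in the authors' table of log2 values. Probes of this name were present for 7 of the 10 genes among 56605 probes. No probe carried the name of Ugt1a1, Ugt1a7c or Ugt1a9, and they have only probes of neighbours that are annotated to them as well. Of the 7, Ugt2b1 was too dim to be tested, which left 6 among 38702 probes tested. Ugt2b1 was not in the authors' table, and its single probe was taken from the scanner values.

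RNA came from the whole colon of male C57Bl6/J mice, labelled with Cy3 and read on 17 one-colour arrays. Mice were WT, bought at 6 weeks of age and acclimatised for 2 weeks, or Pxr-/-, backcrossed to the same strain and bred in-house for 10 years, with no age given. Arrays numbered 4 for each of WT CONT, WT PCN and Pxr-/- PCN, and 5 for Pxr-/- CONT. The rodent PXR ligand PCN (pregnenolone 16α-carbonitrile) was injected intraperitoneally at 100 mg/kg in corn oil on each of 4 days, and CONT mice received the oil alone. Mice had free access to food and were killed 6 h after the last injection. This was 6 h after lights on (zeitgeber time 6), when the paper describes mice as semi-fasted. Origin of the mice and genotype cannot be told apart. Values below are log2 intensities after quantile normalization between arrays, so that 1 unit is a doubling of the signal, and values of different probes are not compared in level.

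Some arrays stood apart, and their labels bear on every comparison. Over 38646 probes, the log2 values of WT PCN 4 and Pxr-/- PCN 2 differed with an SD of 0.172 and those of WT PCN 3 and Pxr-/- CONT 2 with an SD of 0.198, against 0.297 to 0.616 for the other 134 pairs. Nr1i2 was 11.97 to 12.31 in the 4 WT CONT arrays and 12.44 and 11.85 in WT PCN 1 and 2. It was 11.10 and 11.15 in the arrays labelled WT PCN 3 and WT PCN 4, within the 10.39 to 11.93 of the 9 Pxr-/- arrays. The 11.85 of WT PCN 2 lies within that range too, so the range by itself does not tell the genotypes apart. Whether the Nr1i2 probe lies in the deleted part of the gene is not given in the sources used here. Every comparison below was therefore also run on 13 arrays, without WT PCN 3 and 4, Pxr-/- CONT 2 and Pxr-/- PCN 2. Markers of colonocytes (list mean 14.85 to 15.47) and goblet cells (17.26 to 17.86) were high on all arrays. Pancreatic markers reached a list mean of 17.66 in WT CONT 4, 15.28 in WT PCN 3, 15.23 in Pxr-/- CONT 2 and 10.54 in WT PCN 1, and were at most 5.86 on the other arrays.

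The probes decide which transcripts are seen, and those that lie in coding sequence are shown here. The arrays hold 5 probes of the Ugt1a locus. Those of Ugt1a10 (mm9, chr1:89952780-89952839, plus strand) and of Ugt1a6b (mm9, chr1:90004249-90004308, plus strand) lie in the first exons, which code for the part of the enzyme that binds the substrate. The capitals mark the longest run that both hold in common, of 8 bases, and each probe is set by its place in 1 first exon. By accession the Ugt1a10 probe is also annotated to Ugt1a9, whose own start site lies downstream of that of Ugt1a10 (RefSeq, GRCm38.p6), so its values are taken as those of the Ugt1a10 exon and not as a measure of Ugt1a9.
Ugt1a10, first exon: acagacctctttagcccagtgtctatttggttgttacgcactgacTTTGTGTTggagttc
Ugt1a6b, first exon: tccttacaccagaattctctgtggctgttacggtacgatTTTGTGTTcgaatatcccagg

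A further Ugt1a6b probe lies in the shared last coding part (mm9, chr1:90114900-90114959, plus strand). It is annotated to Ugt1a6b alone, and is shown because it lies at the end of the locus, downstream of the first exons.
Ugt1a6b, last coding part: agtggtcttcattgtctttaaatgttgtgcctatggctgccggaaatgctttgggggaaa

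The remaining Ugt1a probes lie downstream of it on the same strand. The Ugt1a6b probe at chr1:90115493-90115552 is annotated to Ugt1a6b, Ugt1a6a, Ugt1a7c and Ugt1a10. The Ugt1a6a probe, at chr1:90116514-90116573, is annotated to Ugt1a6a, Ugt1a7c, Ugt1a10 and Ugt1a1, and is thus the one probe annotated to Ugt1a1.

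On chromosome 5, the probes of the Ugt2b genes lie at mm9 chr5:87318849-87318908 (Ugt2b34), chr5:87346310-87346369 (Ugt2b1), chr5:87440554-87440613 (Ugt2b35) and chr5:87554155-87554214 (Ugt2b5), and that of Ugdh at chr5:65804760-65804819. All are on the minus strand except that of Ugt2b35. The Ugt2b36 probe spans 14459 bases (chr5:87495455-87509913, minus strand), hence an intron, and is annotated to both Ugt2b36 and Ugt2b37. Probes of the neighbours Ugt2b37 and Ugt2b38, which are no members of the list, are used beside it. The Ugt2b5 and Ugt2b37 probes match in 50 of 56 aligned bases, with a shared run of 18, and their signals may not be separate. The coding probes of Ugt2b36 and Ugt2b38 (chr5:87839345-87839404, minus strand) are shown because their values run together below. The longest run they hold in common is 7 bases, but they start at different places, at bases 1325 and 1453 of their transcripts. Whether a probe also binds the transcript of a neighbour was not tested, so these signals may not be separate either.
Ugt2b36: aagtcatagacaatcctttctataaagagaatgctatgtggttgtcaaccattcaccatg
Ugt2b38: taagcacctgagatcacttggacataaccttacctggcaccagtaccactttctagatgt

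The first question was whether PCN or the loss of PXR changed these transcripts in the colon. No member was called in any of the 5 comparisons (limma, FDR of at most 0.05 over all probes and fold change over 1.5), 0 of 6 in each. The share of all 38702 probes called was 0% for PCN in WT, 0.00517% for the same treatment in Pxr-/-, 0% for genotype in CONT, 0% for genotype under PCN and 0% for the interaction, so a count of 0 among 6 members equals the background. At an unadjusted p under 0.05, also 0 of 6 members passed in each comparison, where 4.66%, 7.35%, 12.7%, 3.28% and 5.38% of all probes did in the same order, so that a count of 0 among 6 is close to the background. The 2 groups overlapped for all 6 members in each of the 4 comparisons between groups, whereas groups did not overlap for 2.64% of all probes for PCN in WT, 2.8% in Pxr-/-, 5.38% for genotype in CONT and 1.48% for genotype under PCN. On the 13 arrays again no member was called, where 0.0491%, 0.0517%, 0%, 0.0207% and 0.00258% of all probes were called in the same order. There 1 of 6 members had an unadjusted p under 0.05 for genotype in CONT and 1 of 6 for genotype under PCN, and 0 of 6 in the other comparisons. The shares of all probes were 4.68%, 7.19%, 10.1%, 7.56% and 2.95%. The median log2 difference of the 6 members was 0.143 for PCN in WT, -0.036 in Pxr-/-, 0.189 for genotype in CONT, -0.024 for genotype under PCN and -0.094 for the interaction, beside medians of all probes from -0.0001 to 0.0089. Each array was taken as 1 mouse, and the p-values measure the spread between these arrays.

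**Figure D1:**
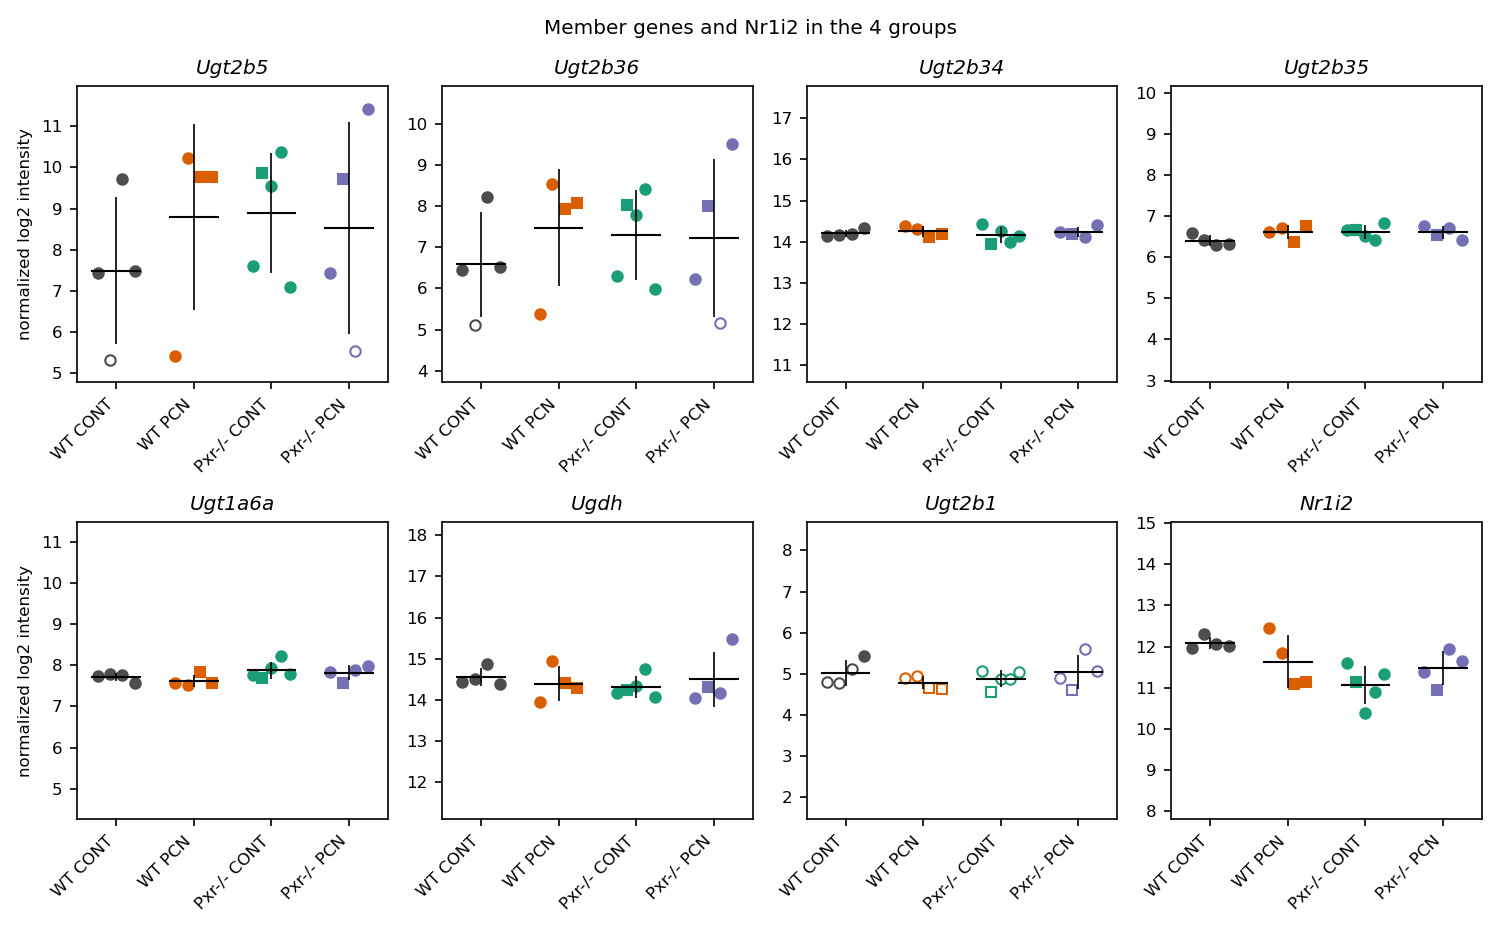
Normalized log2 intensity of the 7 members with a probe and of Nr1i2, by group, on axes of equal height (7.2 log2 units). Each point is 1 array (squares, the 4 near-identical arrays; open symbols, not well above background), horizontal lines are group means and vertical lines are ±1 SD. Ugt2b5 and Ugt2b36 spread over 6.10 and 4.40 log2 units within overlapping groups, while Ugt2b34 spans 13.95 to 14.42 over all groups.

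Ugt2b5, an enzyme that conjugates steroids, was the member with the widest spread. Its log2 values in WT CONT 2, 3, 4 and 5 were 7.43, 5.33, 9.71 and 7.48. In WT PCN 1 to 4 they were 5.41, 10.22, 9.78 and 9.77. In Pxr-/- CONT 1 to 5 they were 7.60, 9.86, 9.55, 10.38 and 7.10, and in Pxr-/- PCN 1 to 4 they were 7.43, 9.71, 5.55 and 11.43. Every group thus held arrays at 7.60 or below and arrays at 9.55 or above, with none between, and all groups overlapped. WT CONT 3 and Pxr-/- PCN 3 were not well above background, so that their values are upper bounds. The SD within groups was 1.46 to 2.58, and the SD over all arrays, 1.91, was exceeded by 0.196% of the probes tested.

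The group means of Ugt2b5 were 7.49 ± 1.79 in WT CONT and 8.80 ± 2.26 in WT PCN (SD, n = 4 each). They differed by 1.22 (SE 1.37, adjusted p = 0.956, limma), with a 95% interval from -1.71 to 4.14. For PCN in Pxr-/- the difference was -0.41 (-3.14 to 2.33), and for genotype in CONT it was 1.45 (-1.28 to 4.19). These intervals are wide enough to hold a change of several fold either way. Within wash baths, a batch that the labels give, the direction turned. WT PCN minus WT CONT was 3.55 in bath 1 (3 and 2 arrays) and -3.18 in bath 2 (1 and 2 arrays). The 3 WT PCN arrays of bath 1 include the near-identical WT PCN 3 and WT PCN 4. Without them, only WT PCN 2 (10.22) is left in bath 1, beside WT PCN 1 (5.41) in bath 2. Pxr-/- PCN minus Pxr-/- CONT was -2.34 in bath 1 (2 arrays each) and 1.24 in bath 2 (2 and 3 arrays). On the 13 arrays the difference for PCN in WT was 0.33 (-3.69 to 4.35).

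Ugt2b36 repeated the array pattern of Ugt2b5. It was 6.45, 5.12, 8.23 and 6.53 in WT CONT 2 to 5, 5.38, 8.53, 7.93 and 8.08 in WT PCN 1 to 4, 6.31, 8.03, 7.79, 8.42 and 5.98 in Pxr-/- CONT 1 to 5, and 6.22, 8.01, 5.16 and 9.52 in Pxr-/- PCN 1 to 4. The arrays below 7.60 for Ugt2b5 or equal to it were those at 6.53 or below for Ugt2b36. The groups overlapped, and the differences were 0.85 (SE 0.97, adjusted p = 0.956, limma) for PCN in WT and 0.74 (SE 0.91, adjusted p = 0.743) for genotype in CONT. Over the 13 arrays, Pearson's r between both genes was 0.991, given as a description without a test because the arrays share groups and fall into separate clusters.

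The neighbours Ugt2b37 and Ugt2b38 ran with them. Ugt2b38 ranged from 6.25 in Pxr-/- PCN 3 to 11.97 in Pxr-/- PCN 4, was well above background on all 17 arrays, and had an r of 0.998 with Ugt2b5. Ugt2b37 ranged from 5.0 to 9.57 in the same pair of arrays, with 1 departure, since WT CONT 3 had 6.70 for Ugt2b37 but 5.12 for Ugt2b36. None of the 4 genes was called in any comparison.

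Ugt2b34 and Ugt2b35, from the same chromosomal cluster, did not share this pattern. Ugt2b34 was 14.14, 14.16, 14.18 and 14.34 in WT CONT 2 to 5, 14.39, 14.31, 14.11 and 14.19 in WT PCN 1 to 4, 14.42, 13.95, 14.26, 13.99 and 14.15 in Pxr-/- CONT 1 to 5, and 14.23, 14.20, 14.12 and 14.41 in Pxr-/- PCN 1 to 4. Its SD over all arrays was 0.134, below the median of 0.177 over all probes tested. Here the intervals are narrow. PCN in WT gave 0.07 (95% interval -0.13 to 0.28) and genotype in CONT gave -0.06 (-0.26 to 0.13), which leave out any change of 1.5-fold or more.

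Ugt2b35 lay between 6.29 and 6.58 in WT CONT, 6.36 and 6.75 in WT PCN, 6.41 and 6.83 in Pxr-/- CONT, and 6.42 and 6.77 in Pxr-/- PCN. The difference for PCN in WT was 0.21 (SE 0.12, 95% interval -0.03 to 0.46, adjusted p = 0.956, limma). On the 13 arrays WT PCN 1 and 2 (6.62 and 6.72) stood above all 4 WT CONT arrays, but groups failed to overlap for 11.2% of all probes in this comparison of 2 with 4 arrays, and 1 of 6 members is no result. Ugt2b1, an enzyme of the liver, was well above background in 1 array, WT CONT 5, at 5.44. The same array had the highest level of liver markers, with a list mean of 10.52 and Alb, the gene of serum albumin, at 12.68. Liver markers were 7.95 in WT PCN 1 and in WT PCN 2, where Ugt2b1 was 4.90 and 4.94, and 5.77 to 6.22 on the other arrays. The highest Ugt2b1 value, 5.61, was in Pxr-/- PCN 3, where it was not well above background and the liver marker mean was 6.09. The part of liver RNA in the Ugt2b1 signal was not tested.

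**Figure D2:**
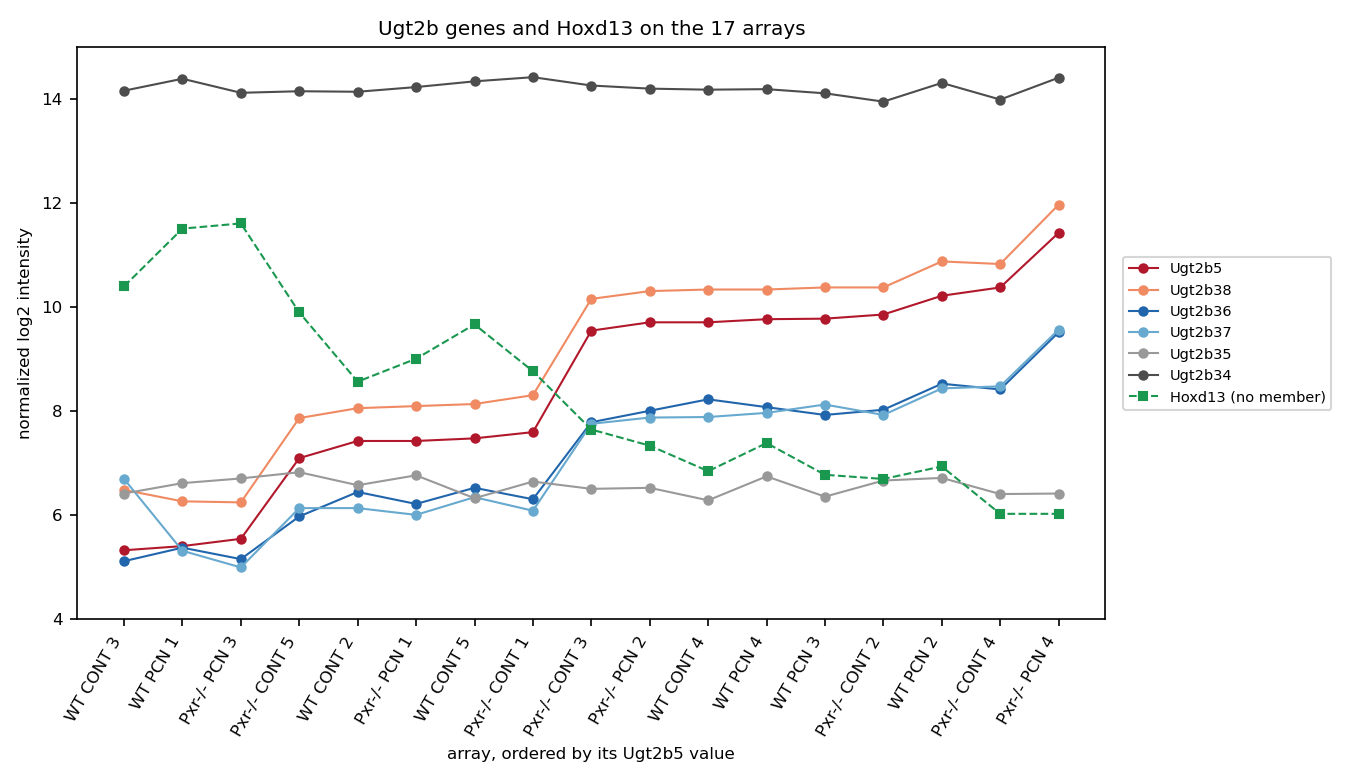
Normalized log2 intensity of 6 Ugt2b genes and of Hoxd13, a gene of the distal colon, on the 17 arrays, ordered along the x axis by Ugt2b5. Each point is 1 array and lines join the values of 1 probe. Ugt2b38, Ugt2b36 and Ugt2b37 climb with Ugt2b5, Ugt2b34 and Ugt2b35 stay level, and Hoxd13 falls from 11.61 to 6.03 across the same arrays.

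The order of the arrays by Ugt2b5 was close to the reverse of their order by Hoxd13, one of the Hox genes whose expression marks position along the gut. Hoxd13 was 10.40, 11.51 and 11.61 in the 3 arrays with the lowest Ugt2b5 (WT CONT 3, WT PCN 1 and Pxr-/- PCN 3). It was 8.57 to 9.90 in the next 5 arrays and 7.65 or less in the 9 arrays with Ugt2b5 at 9.55 or above. The lowest Hoxd13, 6.03, was measured in Pxr-/- CONT 4 and Pxr-/- PCN 4, the arrays with the highest Ugt2b5. The 8 arrays low in Ugt2b5 were also those highest in Hoxb13 (15.63 or more, against 14.55 or less) and Hoxd12 (6.30 or more, against 5.78 or less). The other distal markers did not split the arrays in this way. Hoxd10 was 8.03 in Pxr-/- PCN 4 and 7.14 in Pxr-/- CONT 3, both high in Ugt2b5, and Hoxa13 was 9.32 to 9.88 on all arrays except Pxr-/- PCN 4, at 7.83. The mean of the 5 distal colon markers (Hoxb13, Hoxd13, Hoxd12, Hoxd10 and Hoxa13) ranged from 8.20 to 10.27 in WT CONT, 8.29 to 10.80 in WT PCN, 7.95 to 9.70 in Pxr-/- CONT and 6.83 to 10.85 in Pxr-/- PCN. In Pxr-/- PCN 4, Hoxb13 was 7.53 against 12.88 to 16.09 elsewhere, and Sis, the sucrase-isomaltase of the small intestine, was 10.74 against 7.39 or less elsewhere. The part of these differences in the Ugt2b values was not tested. In whole tissue, fewer cells of a type and less RNA per cell cannot be told apart.

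The list means of other cell types over all arrays spanned 14.50 to 15.45 for smooth muscle, 9.95 to 11.20 for immune cells, 10.55 to 11.25 for crypt cells and 6.89 to 8.43 for small intestine, where Lct, the lactase gene, did not exceed 5.73.

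Because the probes of these Ugt2b genes moved together, the sequences before the start sites of the genes were set side by side. RefSeq promoters (GRCm38.p6, 250 bases before and 50 after the start site) were found for all 10 members. Those of Ugt2b5 and Ugt2b38 were identical in 90.0% of aligned bases, those of Ugt2b37 and Ugt2b38 in 95.5%, those of Ugt2b5 and Ugt2b36 in 70.6%, and those of Ugt2b5 and Ugt2b34 in 57.8%. The promoter of Ugt2b35, whose values did not run with Ugt2b5, was identical to that of Ugt2b5 in 67.9%. This is close to the 70.6% of Ugt2b36, so promoter identity does not by itself separate the genes that ran together. The 100 bases before each start site are shown for the 4 genes that ran together and for Ugt2b34, which did not, with the hexamer AGGTCA, a core that many nuclear receptors recognise, in capitals. All 5 lie on the minus strand and are given 5′ to 3′ along the gene.
Ugt2b5 (chr5:87140341-87140440): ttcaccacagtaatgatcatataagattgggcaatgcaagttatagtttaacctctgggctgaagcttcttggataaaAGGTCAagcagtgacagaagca
Ugt2b36 (chr5:87092556-87092655): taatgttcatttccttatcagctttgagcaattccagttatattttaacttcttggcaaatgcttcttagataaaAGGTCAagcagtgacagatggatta
Ugt2b37 (chr5:87254789-87254888): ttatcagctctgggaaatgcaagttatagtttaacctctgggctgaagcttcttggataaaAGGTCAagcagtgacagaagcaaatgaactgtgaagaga
Ugt2b38 (chr5:87424204-87424303): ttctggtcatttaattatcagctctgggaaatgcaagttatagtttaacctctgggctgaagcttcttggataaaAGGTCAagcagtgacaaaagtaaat
Ugt2b34 (chr5:86906938-86907037): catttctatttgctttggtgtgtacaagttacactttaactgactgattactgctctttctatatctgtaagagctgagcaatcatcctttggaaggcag

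The hexamer began 22, 25, 39 and 25 bases before the start sites of Ugt2b5, Ugt2b36, Ugt2b37 and Ugt2b38. On this strand it occurred 40 to 11 bases before the start site, a window set after these positions were seen, in 0.822% of 32851 promoters. Counted on both strands and over the whole promoter, AGGTCA occurred in 16.3% of all promoters and in 5 of the 10 members (Ugt1a7c, Ugt1a9, Ugt2b5, Ugt2b35 and Ugt2b36). Similar promoters of neighbouring genes are not independent, and a match is not a binding site. The direct repeats of AGTTCA with 3 bases between (0% of promoters) and of AGGTCA with 4 bases between (0.0152%), forms that PXR can bind and that contain the single hexamers, matched no member. AGTTCA (14%) matched Ugt1a1 and Ugt2b1. Of the forms of the hepatocyte nuclear factor core, GTTAAT (7.1%) matched Ugt1a1, Ugt1a6a and Ugt1a9, the longer form in which ATT follows after 1 base (0.399%) matched Ugt1a1 and Ugt1a9, and the full palindrome, in which ATTAAC follows (0.00913%), matched none. Also searched on both strands were TTTATG (11.9%, Ugt2b1), TTTATT (19.6%, Ugt2b5 and Ugt2b35), CAAAGTCCA (0.475%, no member), GCGTG (32.4%, Ugdh), TGTTTAC (3.65%, Ugt2b35), TGANNNNGC (41.3%, 4 members) and TGACNNNGC (12.4%, Ugdh), of which the last overlaps the one before.

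At the Ugt1a locus, the probe named Ugt1a6a was 7.74, 7.79, 7.76 and 7.57 in WT CONT 2 to 5 and 7.57, 7.52, 7.84 and 7.57 in WT PCN 1 to 4. It was 7.77, 7.68, 7.93, 8.22 and 7.80 in Pxr-/- CONT 1 to 5 and 7.83, 7.57, 7.88 and 7.99 in Pxr-/- PCN 1 to 4. UGT1A6 enzymes conjugate small planar phenols, and through the annotation of this probe the values are also those available for Ugt1a1, the enzyme of bilirubin conjugation. Ugt1a6a and Ugt1a7c have a further annotated probe, the Ugt1a6b probe at chr1:90115493-90115552, which varied otherwise. It ranged from 14.89 to 15.98, and over the 13 arrays its r was 0.403 with the Ugt1a6a probe and 0.867 with Ugt2b5. The values here are thus those of 1 probe and do not settle Ugt1a6a or Ugt1a7c. For the probe named Ugt1a6a, the groups overlapped on the 17 arrays, and no difference passed, with -0.11 (95% interval -0.36 to 0.14) for PCN in WT and 0.22 (-0.03 to 0.47) for genotype under PCN. On the 13 arrays the latter was 0.37 (0.10 to 0.65, unadjusted p = 0.0122, adjusted p = 0.534, limma), and genotype in CONT was 0.22 (unadjusted p = 0.0473, adjusted p = 0.493). Then all 3 Pxr-/- PCN arrays (7.83 to 7.99) stood above WT PCN 1 and 2 (7.57 and 7.52), as groups failed to overlap for 19.1% of all probes in this comparison of 3 with 2 arrays, and 1 of 6 members did so.

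**Figure D3:**
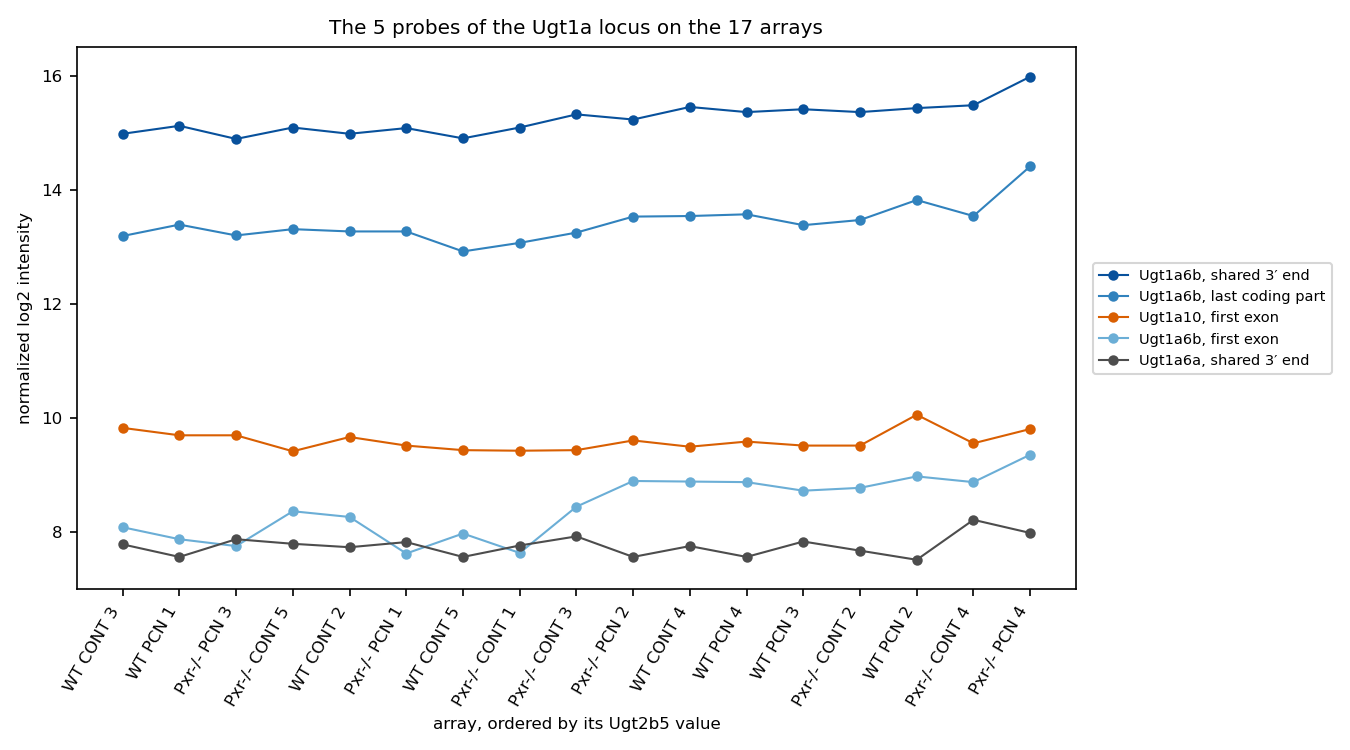
Normalized log2 intensity of the 5 probes of the Ugt1a locus on the 17 arrays, in the order of Ugt2b5. Each point is 1 array and lines join the values of 1 probe, and levels of different probes are not comparable. The first-exon probe of Ugt1a6b moves from 7.63 to 9.36 across the arrays, while the first-exon probe of Ugt1a10 stays between 9.42 and 10.06.

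The first-exon probes of the locus differed in how they varied. That of Ugt1a10 was 9.67, 9.83, 9.50 and 9.44 in WT CONT 2 to 5, 9.70, 10.06, 9.52 and 9.59 in WT PCN 1 to 4, 9.43, 9.52, 9.44, 9.56 and 9.42 in Pxr-/- CONT 1 to 5, and 9.52, 9.61, 9.70 and 9.81 in Pxr-/- PCN 1 to 4. All arrays thus lay within 0.64 of each other, and PCN in WT gave 0.08 (-0.16 to 0.33). On the 13 arrays, PCN in WT gave 0.27 (0.02 to 0.52, unadjusted p = 0.0346, adjusted p = 1, limma) and PCN in Pxr-/- gave 0.24 (0.02 to 0.46, unadjusted p = 0.0332, adjusted p = 0.643), and neither passed.

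That of Ugt1a6b split the arrays as Ugt2b5 did, with 8.37 or less on the 8 arrays low in Ugt2b5 and 8.45 or more on the other 9. It was 8.27, 8.09, 8.89 and 7.98 in WT CONT 2 to 5, 7.88, 8.98, 8.73 and 8.88 in WT PCN 1 to 4, 7.64, 8.78, 8.45, 8.88 and 8.37 in Pxr-/- CONT 1 to 5, and 7.63, 8.90, 7.76 and 9.36 in Pxr-/- PCN 1 to 4. Its r with Ugt2b5 was 0.839 over the 13 arrays, and the SD over all arrays, 0.535, was exceeded by 5.01% of probes. The Ugt1a6b probes in the last coding part (12.92 to 14.41) and further downstream (14.89 to 15.98) were highest in Pxr-/- PCN 4, like the first exon. The group differences of these 3 probes lay between -0.29 and 0.33 and none was called.

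Ugdh, which makes the shared sugar donor, was 14.44, 14.51, 14.87 and 14.39 in WT CONT 2 to 5, 13.94, 14.95, 14.40 and 14.29 in WT PCN 1 to 4, 14.17, 14.24, 14.33, 14.75 and 14.06 in Pxr-/- CONT 1 to 5, and 14.04, 14.32, 14.16 and 15.48 in Pxr-/- PCN 1 to 4. The highest value in each group fell on the array with the highest Ugt2b5 in that group. The groups overlapped, and the differences were -0.17 (95% interval -0.78 to 0.44) for PCN in WT and 0.18 (-0.39 to 0.76) for PCN in Pxr-/-. A further Ugdh probe (chr5:65804532-65804591, minus strand) gave -0.18 (-0.72 to 0.37) and 0.11 (-0.40 to 0.62), and r between both was 0.978.

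**Figure D4:**
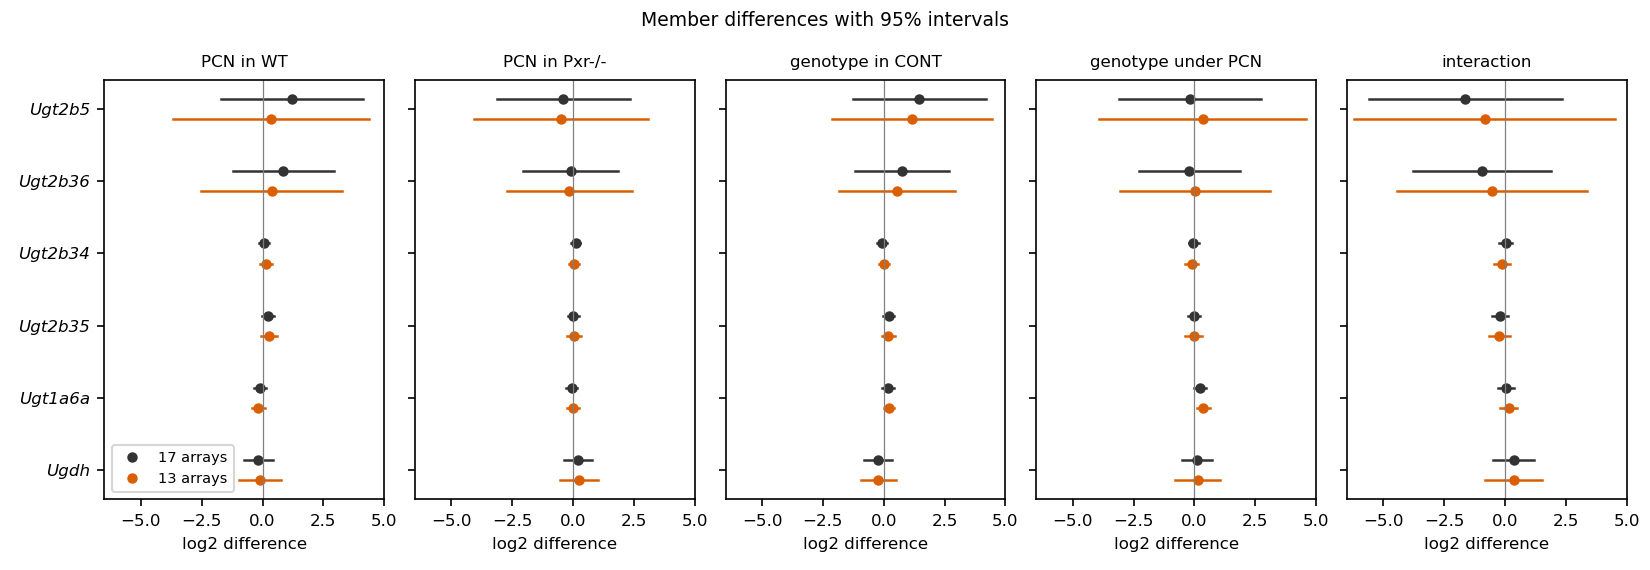
Log2 differences of the 6 members tested (points) with 95% intervals from limma (lines), in the 5 comparisons, on all 17 arrays (dark) and on the 13 arrays without the near-identical ones (orange). The interaction is PCN in Pxr-/- minus PCN in WT. Intervals of Ugt2b5 and Ugt2b36 are several log2 units wide, while those of Ugt2b34, Ugt2b35 and Ugt1a6a are narrow and those of Ugdh lie between. The interval of Ugt1a6a for genotype under PCN on 13 arrays (0.10 to 0.65) leaves out 0 before adjustment over all probes.

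Other genes of the pathway were taken from lists. Of 13 further UGT family genes, 9 had a probe and 6 were tested, and none was called in either direction in any comparison with 17 or 13 arrays. In PCN in WT the largest differences among them were 1.12 (SE 1.28) for Ugt2b38, 0.58 (SE 0.93) for Ugt2b37 and -0.40 (SE 0.30) for Ugt3a2, a transferase that uses other sugars. The Ugt3a2 probe was well above background on only 6 of the 17 arrays, so its difference is limited by the background. Among the 6 genes tested, the 1 at an unadjusted p under 0.05, which 4.66% of all probes passed, was Ugt2a1, known from the olfactory epithelium, whose probe is annotated to Ugt2a2 too. It was 9.56, 9.63, 9.51 and 9.55 in WT CONT 2 to 5 and 9.94, 9.96, 9.70 and 9.68 in WT PCN 1 to 4, a difference of 0.27 (0.07 to 0.47, unadjusted p = 0.011, adjusted p = 0.956, limma). These groups did not overlap, as was the case for 2.64% of all probes in this comparison. In Pxr-/- the difference was 0.00 (-0.18 to 0.19), and the interaction was -0.27 (unadjusted p = 0.0526, adjusted p = 0.848, limma). On the 13 arrays, WT PCN 1 and 2 still stood above all WT CONT arrays for Ugt2a1, where groups failed to overlap for 11.2% of all probes. Of these 6 genes, 2, 1, 0, 1 and 1 then had an unadjusted p under 0.05 (limma) in the 5 comparisons, in the order used above. The shares of all probes were 4.68%, 7.19%, 10.1%, 7.56% and 2.95%.

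Of 16 genes for the supply and use of UDP-glucuronic acid, 15 were tested and none was called in any comparison. In PCN in WT the largest differences were 0.71 (SE 0.47) for Slc35d1, which carries UDP-glucuronic acid into the endoplasmic reticulum, and 0.26 (SE 0.14) for Slc35b1, which exchanges ATP and ADP across the same membrane. Slc35d1 ranged from 8.99 to 9.82 in WT CONT, 9.10 to 10.61 in WT PCN, 9.20 to 10.66 in Pxr-/- CONT and 9.12 to 11.44 in Pxr-/- PCN, and its groups overlapped. Of 5 efflux transporters that export glucuronides all were tested and none was called, the largest differences in PCN in WT being -0.22 (SE 0.22) for Abcc4, 0.16 (SE 0.18) for Abcc1 and -0.15 (SE 0.15) for Abcc2. Of 14 receptors and factors that control UGT genes all were tested and none was called. The largest differences in PCN in WT were -0.35 (SE 0.27) for Nr1i2, -0.22 (SE 0.22) for Nr1i3, the receptor CAR, and 0.16 (SE 0.48) for Ppara. Without WT PCN 3 and 4 and the arrays near-identical to them, the difference for Nr1i2 was 0.05 (SE 0.28, 95% interval -0.58 to 0.68), so that its sign rested on these arrays. On all arrays the group means of Nr1i2 were 12.09 ± 0.15 in WT CONT, 11.63 ± 0.64 in WT PCN and 11.48 ± 0.42 in Pxr-/- PCN (SD, n = 4 each), and 11.07 ± 0.46 in Pxr-/- CONT (SD, n = 5).

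The genes most like each member were ranked by Pearson's r over the 13 arrays, as a description, among 17050 genes, each by its brightest probe. Those most like Ugt2b5 were Ugt2b38 (0.998), Ugt2b36 (0.991) and ccdc198 (0.986). For Ugt2b36 they were Ugt2b38 (0.992), Ugt2b5 (0.991) and Slc47a1 (0.987), an exporter of organic cations. For Ugdh they were Ank (0.946), Adk (0.945) and Mettl7b (0.943). The genes most like Ugt1a6a (Mrgpra4, Zw10 and Zfp101, r of 0.872 to 0.878), Ugt2b34 (Brd2, Tmem128 and Gm28651, 0.849 to 0.875) and Ugt2b35 (Htt, Rmnd5b and Atxn3, 0.801 to 0.895) included no UGT.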

How the data were processed

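The authors hybridized Cy3-labelled colon RNA to one-colour arrays and deposited scanner output (Agilent Feature Extraction 10.10.1.1, per the labels), from which the median intensity of each spot was used. Their deposited log2 table of 36695 probes served to choose probes and as an alternative. After removal of outlier spots, log2 intensities were quantile-normalized between arrays and averaged per probe. Probes well above background on at least 4 arrays were tested with limma 3.58.1 in R 4.3.3, with groups and wash bath in the model and Benjamini-Hochberg adjustment over all probes. The paper reports liver arrays of the same design, and its methods for mice and arrays were taken to apply to the colon arrays. Its CrossNorm normalization was not repeated. Depth does not apply to arrays, and their number limits precision. The members and gene lists were chosen with earlier results of these data known. Named are all members, the 3 pathway genes of each list with the largest difference in PCN in WT and the 3 genes most like each member, except 1 pathway gene that is not reported here. Slc35d1, Ugt2a1 values and the promoter window were singled out after values were seen. Alternatives were other values, filters, blocks, thresholds and left-out arrays.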

Additional observations from a re-analysis of the deposited data

Results flagged for a closer look

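In 2 of the 28 groups examined (7 members in 4 groups), 1 array stood apart from the rest of its group by Dixon's criterion, which chance reaches in about 1 of 20 groups. Ugt2b5 was 5.41 in WT PCN 1, against 9.77 to 10.22 in the other WT PCN arrays, 2 of which are among the near-identical arrays. Ugt1a6a was 7.84 in the array labelled WT PCN 3, against 7.52 to 7.57 in the others of that group.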

How the results depend on the processing

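The count of members called was 0 in all 5 comparisons under each of 159 alternative values (other intensities, background correction, filters, wash bath or slide, a replicate block, thresholds, eBayes settings and left-out arrays). The lowest adjusted p of a member was 0.323, for Ugt2b5 and genotype in CONT (1.89) with the replicate number as a block. The median difference of the members lay between -0.02 and 0.203 for PCN in WT, -0.177 and 0.216 for PCN in Pxr-/-, 0.033 and 0.219 for genotype in CONT, -0.137 and 0.241 for genotype under PCN, and -0.17 and 0.035 for the interaction. Of 884 alternative values of single members, 52 changed sign and the others kept it, all of differences that were not called, and the cause was not tested. For PCN in Pxr-/-, Ugt2b35 became 0.006 with the authors' log2 values, 0.043 with the corrected signal scaled to the 75th percentile, 0.005 with normexp, 0.003 with the slide as a random block, 0.011 with the replicate block, 0.037 on the 13 arrays and 0.008 with only the groups compared, and Ugt2b36 became 0.009 with normexp. For genotype in CONT, Ugt2b34 became 0.022 with the corrected signal and Ugt2b36 -0.058 with the slide as a fixed block. For genotype under PCN, the 13 arrays gave 0.335 for Ugt2b5 and 0.014 for Ugt2b36, the corrected signal 0.011 and the slide as a fixed block 0.01 for Ugt2b34, and the replicate block 0.013 for Ugt2b35. For the interaction, Ugt2b34 became -0.012 with the corrected signal and -0.113 on the 13 arrays. Leaving out 1 array at a time gave, for PCN in WT, -0.343 to 0.03 for Ugdh. For PCN in Pxr-/- it gave -0.152 to 0.031 for Ugt1a6a, -1.591 to 0.687 for Ugt2b5, -0.061 to 0.072 for Ugt2b35, -1.018 to 0.649 for Ugt2b36 and -0.202 to 0.347 for Ugdh. For genotype under PCN it gave -1.687 to 1.129 for Ugt2b5, -0.089 to 0.051 for Ugt2b35, -1.159 to 0.685 for Ugt2b36 and -0.202 to 0.291 for Ugdh, and for the interaction -0.029 to 0.157 for Ugt1a6a and -0.044 to 0.087 for Ugt2b34. Whether the replicate numbers pair the arrays is not settled. The deviations of 22 pairs with the same number correlated between -0.334 and 0.493, with a median of 0.1. Of 17 arrays, 6 correlated best with their own number, but the count that chance would give was not worked out. The members with a dim probe, Ugt2b1 on 16 of 17 arrays and Ugt2b5 and Ugt2b36 on 2 of 17, are limited by the background.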
